A study of Mus musculus with 9 samples.

Results

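Matricellular and adhesive glycoproteins were followed in mouse liver during fibrosis induced by thioacetamide (TAA) and after its withdrawal. The set was listed by gene symbol and not by a cut on measured values, but with earlier results of these data known. It held periostin (Postn), tenascin C (Tnc), osteonectin (Sparc), the thrombospondins Thbs1, Thbs2, Thbs3 and Thbs4, fibronectin (Fn1), vitronectin (Vtn) and the follistatin-like protein Fstl1. These 10 genes were all found among the 21873 genes of the mRNA table. Liver mRNA of 9 male C57BL/6 mice, 8 weeks old at the start, had been sequenced, and each of the groups, called control, TAA and recovery, held 3 mice. Mice of the TAA group received intraperitoneal TAA at 200 mg/kg every 3 days for 8 weeks, and mice of the control group received saline. Their livers were taken 72 h after the last dose. Mice of the recovery group had the same 8 weeks of TAA followed by 8 weeks without injections, so they were older than both other groups, and age and recovery cannot be told apart without an age-matched control group. No genetic change was carried by any group. The questions were which of the 10 genes differed in fibrotic liver, and how far their levels went back after withdrawal.

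Matricellular proteins are secreted into the extracellular matrix but are not its main structural fibres. They bind collagens, integrins, syndecans, growth factors and proteases, and they are typically made at high levels during development and tissue repair. Fibronectin and vitronectin are adhesive glycoproteins that circulate in plasma, are secreted in bulk by hepatocytes, and carry an integrin-binding motif. In injured liver, hepatic stellate cells become myofibroblasts that secrete collagens together with matricellular proteins.

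Levels are given as scaled FPKM, that is, the deposited FPKM (fragments relative to gene length and to the mapped total) divided by a median-of-ratios factor for each library. The factors ran from 0.8265 to 0.8785 for control livers, from 1.288 to 1.377 for TAA livers and from 0.8932 to 0.9065 for recovery livers. The scaling therefore bears on every comparison with the TAA group. The median log2 fold change of all tested genes between the TAA and control groups was 0.02 after scaling and 0.63 for FPKM as deposited. The step between low FPKM values gave an estimated depth of 26.9 to 40.62 M fragments per library. A gene was called differentially expressed when limma gave FDR < 0.05 and at least a 2-fold change, fitted on log2(scaled FPKM + 0.1) over 14094 genes. The added 0.1 understates the change of genes with low FPKM. Some libraries stood apart from their groups in marker genes. Control mouse 1 had 22.2 scaled FPKM of the macrophage gene Gpnmb, where the other control mice had 0.188 and 0.102. It also had 7.1 of Trem2, against 0.302 and 0.389, and a lower endothelial marker sum, 52.7 against 96.0 and 92.2. Recovery mouse 3 had 19.6 of the macrophage gene Marco, where the other recovery mice had 3.83 and 5.19. TAA mouse 3 had a summed level of 44.1 over 10 skeletal muscle genes, where the other libraries had 0.172 to 0.426. For the 10 genes, results that depended on control mouse 1 or TAA mouse 3 are given with the value without that mouse. Marker counts are given with all mice only.

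The promoters of 4 genes are shown because Postn, Tnc and Fstl1 had higher levels in the TAA group than in the recovery group whereas Vtn had lower ones. The sequences are from RefSeq on GRCm38.p6, from 250 bases before to 50 bases after the annotated start, read along the strand of the gene. They lie at chr3:54360857-54361156 on the plus strand for Postn, chr4:64046966-64047265 on the minus strand for Tnc, chr16:37776805-37777104 on the plus strand for Fstl1 and chr11:78498870-78499169 on the plus strand for Vtn. Capitals mark every match, on either strand, to the TATA box motif TATAAA, the CCAAT box, the GC box motif GGGCGG, the AP-1 motif TGANTCA, the TEAD motif CATTCC, the SMAD motif CAGAC and the HNF1 half-site GTTAAT.
Postn: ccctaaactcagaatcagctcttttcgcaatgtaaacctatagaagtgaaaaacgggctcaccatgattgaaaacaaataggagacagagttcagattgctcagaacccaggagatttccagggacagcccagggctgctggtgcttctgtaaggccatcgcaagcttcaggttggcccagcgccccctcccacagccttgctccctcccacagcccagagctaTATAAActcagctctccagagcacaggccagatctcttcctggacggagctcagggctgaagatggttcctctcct
Tnc: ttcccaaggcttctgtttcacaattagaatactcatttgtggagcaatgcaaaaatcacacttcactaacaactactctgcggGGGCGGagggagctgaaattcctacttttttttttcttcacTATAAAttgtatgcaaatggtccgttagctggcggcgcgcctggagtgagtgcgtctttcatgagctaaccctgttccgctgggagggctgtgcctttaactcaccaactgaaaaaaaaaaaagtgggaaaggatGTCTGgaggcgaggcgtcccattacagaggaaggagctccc
Fstl1: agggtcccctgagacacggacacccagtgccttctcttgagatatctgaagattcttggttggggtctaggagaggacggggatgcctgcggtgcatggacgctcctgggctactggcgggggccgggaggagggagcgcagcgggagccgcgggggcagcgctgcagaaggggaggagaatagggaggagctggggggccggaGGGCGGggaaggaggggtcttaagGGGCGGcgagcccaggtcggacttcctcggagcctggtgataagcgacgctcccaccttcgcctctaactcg
Vtn: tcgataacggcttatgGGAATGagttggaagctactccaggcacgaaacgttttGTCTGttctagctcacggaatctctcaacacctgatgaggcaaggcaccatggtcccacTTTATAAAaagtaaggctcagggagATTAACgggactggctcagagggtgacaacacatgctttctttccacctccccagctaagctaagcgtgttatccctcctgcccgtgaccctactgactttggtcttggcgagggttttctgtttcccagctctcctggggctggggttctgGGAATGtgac
The Postn promoter held a TATAAA that began 26 bases before the start, the usual distance of a TATA box. In Vtn the TATAAA matches of both strands overlapped, and the first began 137 bases before the start. Fstl1 held GGGCGG only among the motifs searched. Of the 8 genes with a promoter entry, 4 held TATAAA (Postn, Tnc, Thbs2 and Vtn), against 13.6% of all 32851 promoters, and 4 held GGGCGG (Tnc, Thbs3, Thbs4 and Fstl1), against 35.7%. GTTAAT was present in Sparc and Vtn, against 7.1% of all promoters, and CATTCC in Thbs4 and Vtn, against 14.7%. CAGAC was present in 5 of the 8, against 49.6%, CCAAT in 2 (Thbs2 and Thbs3), against 37.4%, and TGANTCA in 0, against 7.81%. These matches describe letters only and are not shown to be bound.

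Of the 10 genes, 7 were called higher in TAA than in control livers and 1 (Vtn) was called lower. Over all tested genes, 17.0% were called higher and 8.02% lower. The call of Vtn depended on the scaling. For FPKM as deposited, with the same FPKM sum per library and with upper quartile scaling, 8 genes were called higher and 0 lower. With quantile normalization 6 were called higher and 0 lower. Under these scalings, in this order, 4382, 5476, 2681 and 1534 of all 14094 genes were called higher, and 421, 330, 916 and 1355 lower. For recovery against TAA livers, 8 of the 10 were called lower and 1 (Vtn) higher, where 14.3% of all tested genes were called lower and 7.12% higher. Under the same other scalings, in that order, 8, 8, 8 and 6 of the 10 were called lower and 0 higher. Of all 14094 genes 3728, 4854, 2286 and 1379 were then called lower, and 409, 305, 802 and 1198 higher. Between recovery and control livers 0 of 10 were called, where 0.993% of all tested genes were. All TAA livers were above all control livers for 8 genes and below them for Fn1 and Vtn (only Vtn in FPKM as deposited), against 32.6% and 31.0% of all tested genes. All recovery livers were below all TAA livers for 8 genes and above them for 1, against 31.0% and 29.4%. The median log2 fold change of the 10 genes was 1.67 for TAA against control and -1.60 for recovery against TAA, beside 0.02 and -0.01 for all tested genes. These counts and medians include Thbs4, which passed the filter on low values only through the TAA group, so that its direction was fixed by the filter. Without it, 6 of 9 genes were called higher and 1 lower in TAA against control, 7 were called lower and 1 higher in recovery against TAA, and the medians were 1.74 and -1.69. Both comparisons use the same TAA livers, so their values are given side by side and are not independent. In bulk tissue, fewer cells of a type and less RNA per cell cannot be told apart.

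**Figure D1:**
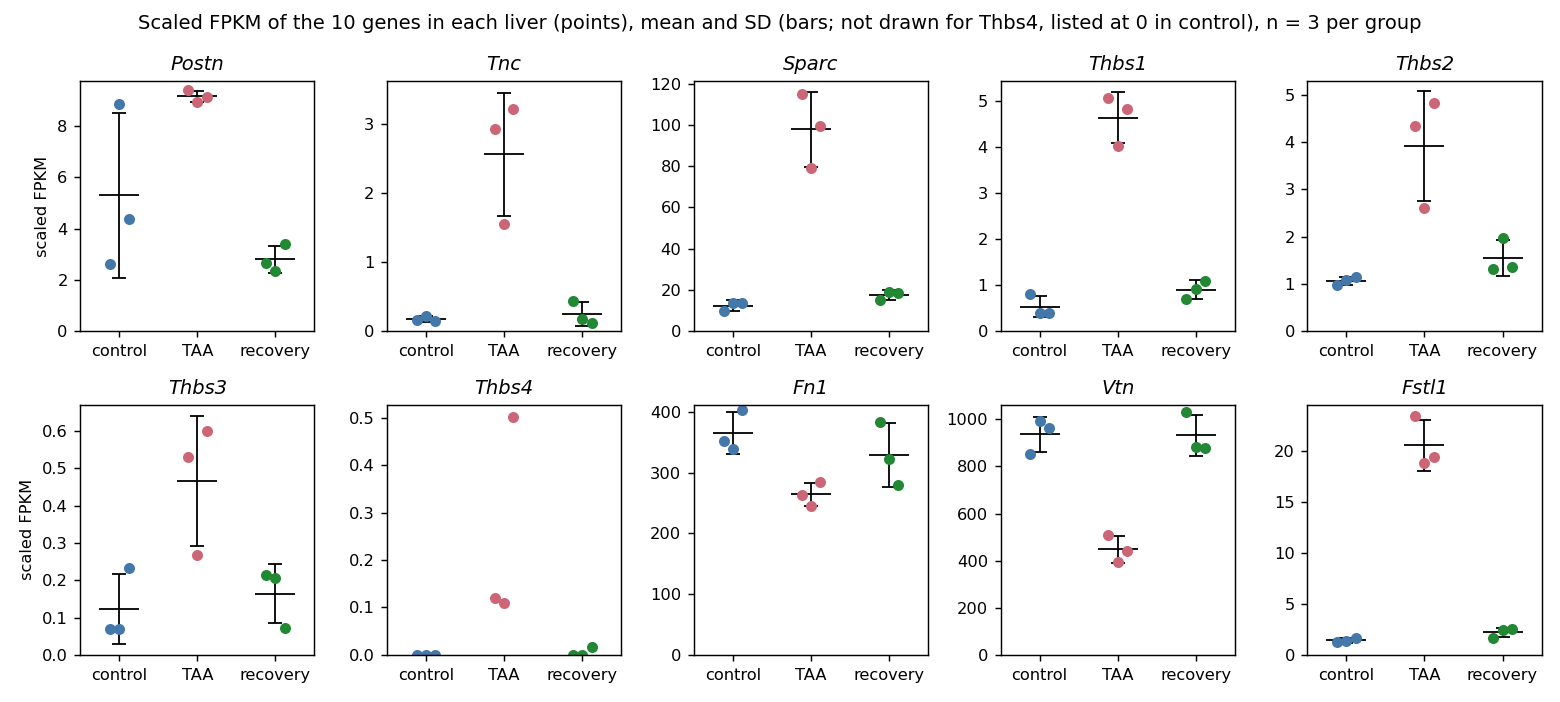
Scaled FPKM (vertical axes, each from 0 and with its own range) of the 10 genes in each liver (points) of the control, TAA and recovery groups, with the group mean and SD as bars except for Thbs4, which is listed at 0 in every control liver. The 3 TAA points lie above all control points in 8 panels and below them for Fn1 and Vtn. The order for Fn1 holds after scaling but its TAA and control points overlap in FPKM as deposited.

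Tnc encodes a large hexameric matricellular protein that is scarce in most adult tissues and appears at sites of repair. The gene (ENSMUSG00000028364) lies on chromosome 4 from 63959785 to 64047015 on the minus strand of GRCm38 (mm10), the build of all loci given here. Scaled FPKM were 0.162, 0.225 and 0.141 in the control livers, 2.93, 1.55 and 3.22 in the TAA livers, and 0.442, 0.172 and 0.125 in the recovery livers. The TAA livers were above all others, and the recovery livers overlapped the control livers. The log2 fold change was 3.22 (SE 0.29, adjusted p = 9.66e-05) for TAA against control and -2.99 (SE 0.39, adjusted p = 5.31e-04) for recovery against TAA. The call was kept in each of the 19 alternatives to both comparisons. In control livers the level corresponds to an estimated 27.9 to 53.0 fragments, so its control values rest on few reads.

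Postn encodes a ligand of integrins that promotes collagen cross-linking. The gene (ENSMUSG00000027750) lies on chromosome 3 from 54361109 to 54391037 on the plus strand. Scaled FPKM were 2.61, 8.87 and 4.39 in the control livers, 9.38, 8.93 and 9.12 in the TAA livers, and 2.65, 2.36 and 3.39 in the recovery livers. The TAA livers lay within a narrow range (9.14 ± 0.225, SD, n = 3), and control mouse 2 came close to them. The log2 fold change for TAA against control was 0.95 (SE 0.38, adjusted p = 0.0656), which did not pass the test. Without control mouse 2 it was 1.4 and passed (adjusted p = 0.00256), and without control mouse 1 it was 0.53 and did not pass. It passed under each other scaling tried. For FPKM as deposited it was 1.58 (adjusted p = 0.00706), and with the same FPKM sum per library 1.77 (adjusted p = 0.00262). With quantile normalization it was 1.04 (adjusted p = 0.0413), and with upper quartile scaling 1.09 (adjusted p = 0.0423). Against the TAA group, Postn fell in the recovery group by 1.69 on the log2 scale (SE 0.14, adjusted p = 7.09e-05). Its recovery mean of 2.80 ± 0.530 was below the control mean of 5.29 ± 3.23 (SD, n = 3), with a log2 fold change of -0.74 that did not pass the test (SE 0.42, adjusted p = 0.343).

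Sparc encodes osteonectin, a collagen-binding protein that takes part in collagen fibril assembly. It lies on chromosome 11 from 55394500 to 55423183 on the minus strand (ENSMUSG00000018593). Scaled FPKM were 9.55, 13.8 and 13.9 in the control livers, 115, 79.0 and 99.5 in the TAA livers, and 15.0, 19.0 and 18.7 in the recovery livers. The groups did not overlap, with the recovery livers between the other groups and closer to the control livers than to the TAA livers. Sparc rose by 2.97 (SE 0.19, adjusted p = 2.02e-05) in the TAA group and fell by 2.46 on the log2 scale (SE 0.16, adjusted p = 2.22e-05) in the recovery group. Of the 8 genes other than Fn1 and Vtn it had the highest level in every liver.

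Fstl1 encodes a secreted glycoprotein with a follistatin-like domain, related in sequence to osteonectin. It lies on chromosome 16 from 37776873 to 37836514 on the plus strand (ENSMUSG00000022816). Scaled FPKM were 1.24, 1.39 and 1.68 in the control livers, 23.4, 18.8 and 19.4 in the TAA livers, and 1.66, 2.41 and 2.52 in the recovery livers. Every TAA liver was far above every other liver, and 1 recovery liver lay within the control range. The log2 fold change of 3.75 for TAA against control (SE 0.15, adjusted p = 3.61e-06) was the largest of the 9 genes above 0 in all groups. The size of its lead depends on the added 0.1, since with a pseudocount of 0.01 Fstl1 was at 3.83 and Tnc close below it at 3.75. In recovery it fell by 3.19 on the log2 scale against the TAA group (SE 0.17, adjusted p = 1.21e-05). Sparc, Thbs1 and Fstl1 also kept both calls in each of the 19 alternatives.

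Thbs1 and Thbs2 encode the trimeric thrombospondins, which bind CD36 and CD47, and thrombospondin 1 can activate latent TGF-β. Thbs1 (ENSMUSG00000040152) lies on chromosome 2 from 118111876 to 118127133 on the plus strand. Its scaled FPKM were 0.800, 0.399 and 0.402 in the control livers, 5.08, 4.02 and 4.83 in the TAA livers, and 0.695, 0.929 and 1.09 in the recovery livers. TAA livers stood above all others, and control mouse 1, the mouse with high Gpnmb, was the highest control liver and lay within the recovery range. The log2 fold change was 2.96 (SE 0.25, adjusted p = 7.42e-05) for TAA against control and -2.25 (SE 0.18, adjusted p = 6.24e-05) for recovery against TAA. The part of the macrophage genes in the level of control mouse 1 was not tested. Thbs2 (ENSMUSG00000023885) lies on chromosome 17 from 14665500 to 14694235 on the minus strand. Its scaled FPKM were 0.978, 1.08 and 1.15 in the control livers, 4.33, 2.60 and 4.82 in the TAA livers, and 1.31, 1.98 and 1.36 in the recovery livers. The groups did not overlap, and the spread was widest in the TAA group (SD 1.17, against 0.0856 in control). Thbs2 rose by 1.74 (SE 0.23, adjusted p = 6.05e-04) and fell by 1.26 on the log2 scale (SE 0.26, adjusted p = 0.00471). The fall was -0.93 and missed the 2-fold limit with a pseudocount of 1.

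Thbs3 and Thbs4 belong to the pentameric thrombospondins, which lack the type 1 repeats of thrombospondins 1 and 2 and are best known from cartilage, tendon and muscle. Thbs3 (ENSMUSG00000028047) lies on chromosome 3 from 89215180 to 89226837 on the plus strand, and 6.59% of its exonic length overlaps Mtx1 on the other strand. Reads of the overlap cannot be told apart unless the counting used strand, which is not given in the sources used here. Scaled FPKM of Thbs3 were 0.0697, 0.0702 and 0.232 in the control livers, 0.529, 0.268 and 0.599 in the TAA livers, and 0.213, 0.206 and 0.0732 in the recovery livers. The lowest TAA liver exceeded the highest control liver by a small margin. The log2 fold change of 1.36 (SE 0.37, adjusted p = 0.0159) for TAA against control passed the test, as did -1.09 (SE 0.35, adjusted p = 0.0305) for recovery against TAA. The first call was lost without control mouse 2, TAA mouse 1 or TAA mouse 3 (adjusted p = 0.0526, 0.055 and 0.0589). The second was lost without TAA mouse 1, TAA mouse 3 or recovery mouse 3 (adjusted p = 0.0922, 0.101 and 0.0818). Quantile normalization ended the first call as well, at a log2 fold change of 0.41 (adjusted p = 0.324).

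Thbs4 (ENSMUSG00000021702, chromosome 13 from 92751590 to 92794818, minus strand) was listed at 0 in all control livers and in recovery mice 1 and 2. Scaled FPKM were 0.119, 0.109 and 0.502 in the TAA livers and 0.0171 in recovery mouse 3. These correspond to an estimated 20.3, 18.3, 87.7 and 2.1 fragments. No fold change is given because it was listed at 0 in control. No test is given either, since a gene that passed the filter on low values only through the TAA livers had to differ from the others. TAA mouse 3, the highest liver, was also the highest library for all 10 skeletal muscle genes, with Acta1 at 19.8 against 0.0655 and 0.0677 in the other TAA livers. Among 6 tendon genes, Tnmd was at 0 in every library and Kera was above 0 only in TAA mouse 3, at 0.0083. Fmod was also highest in TAA mouse 3, at 2.36 against 1.13 and 0.737 in the other TAA livers. The same held for Scx, at 0.591 against 0.556 and 0.170. Mkx was highest in control mouse 2 and Chad in control mouse 1. TAA mice 1 and 2, with muscle sums of 0.405 and 0.219 that lie within the control range of 0.172 to 0.426, also had Thbs4 above 0. The part of muscle tissue in the value of TAA mouse 3 was not tested, and without this mouse Thbs4 did not pass the filter on low values.

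Vtn encodes vitronectin, a plasma protein that binds the integrin αvβ3 and the urokinase receptor. It lies on chromosome 11 from 78499091 to 78502324 on the plus strand (ENSMUSG00000017344). Scaled FPKM were 853, 992 and 965 in the control livers, 508, 395 and 442 in the TAA livers, and 1030, 884 and 880 in the recovery livers. TAA livers were below all others, and recovery and control livers overlapped. Vtn had a log2 fold change of -1.07 for TAA against control (SE 0.13, adjusted p = 4.05e-04) and 1.06 for recovery against TAA (SE 0.13, adjusted p = 4.45e-04). The size depended on the scaling. For FPKM as deposited, Vtn was 705, 848 and 848 in control, 655, 522 and 608 in TAA, and 923, 789 and 798 in recovery livers, and the changes of -0.43 and 0.49 missed the 2-fold limit. Relative to the median of all genes these changes were -1.06 and 1.04. With the same FPKM sum per library they were -0.24 and 0.29, and with upper quartile scaling -0.93 and 0.94, all under the 2-fold limit. With quantile normalization the direction turned, to 0.46 for TAA against control (adjusted p = 0.0118) and -0.28 for recovery against TAA (adjusted p = 0.0956). The call also missed the 2-fold limit without TAA mouse 2, at -0.98 for TAA against control and 0.97 for recovery against TAA, and without recovery mouse 1, at 0.99.

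Fn1 encodes fibronectin, made by hepatocytes as the plasma form and by fibroblasts and endothelial cells as a cellular form that differs in spliced exons, which a level per gene does not separate. It lies on chromosome 1 from 71585520 to 71653200 on the minus strand (ENSMUSG00000026193). Scaled FPKM were 352, 339 and 404 in the control livers, 263, 246 and 284 in the TAA livers, and 384, 323 and 279 in the recovery livers. TAA livers were below control livers, and recovery mouse 3 lay within the TAA range. Fn1 had a log2 fold change of -0.46 for TAA against control (SE 0.11, adjusted p = 0.00892), under the 2-fold limit, and 0.30 for recovery against TAA (SE 0.13, adjusted p = 0.0951). Its direction depended on the scaling. As deposited, Fn1 was 291, 290 and 355 in control and 338, 325 and 392 in TAA livers, with a log2 fold change of 0.18 (adjusted p = 0.217). With quantile normalization the change was 0.76 (adjusted p = 0.0012), so no direction between the TAA and control groups is given for Fn1.

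**Figure D2:**
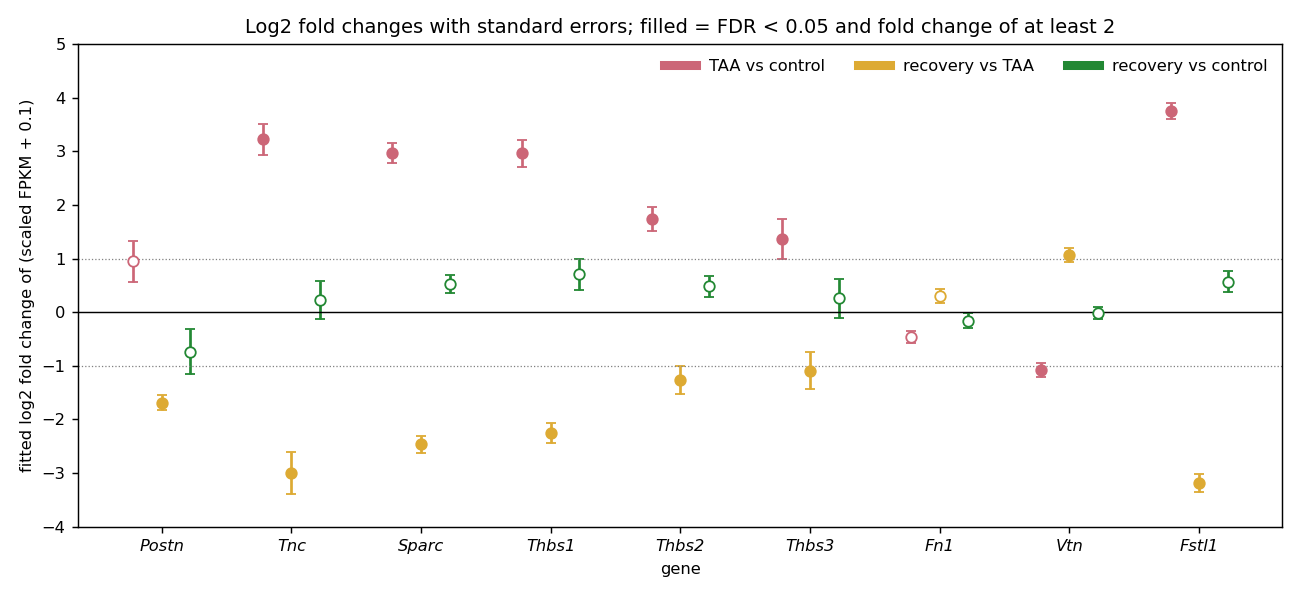
Fitted log2 fold changes of scaled FPKM + 0.1 (vertical axis) with standard errors for 9 genes (horizontal axis) in TAA against control, recovery against TAA and recovery against control, with filled points for called genes and dotted lines at a 2-fold change. Thbs4 is left out because it is listed at 0 in control. Fstl1, Tnc, Sparc and Thbs1 have the largest differences in both comparisons with TAA, no point for recovery against control is filled, and the points of Fn1 and Vtn in the comparisons with TAA change sign under quantile normalization, that of Fn1 also for FPKM as deposited.

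Because FPKM are per length, levels can also be compared between genes of a liver. Vtn and Fn1 together made up 98.4 ± 0.320% of the summed scaled FPKM of the 10 genes in control livers, 83.7 ± 1.0% in TAA livers and 98.0 ± 0.416% in recovery livers (SD, n = 3). The summed level of the other 8 genes was 15.4, 25.8 and 21.9 in control livers, 160, 115 and 142 in TAA livers, and 22, 27.1 and 27.3 in recovery livers. Sparc alone made up 0.931% of the sum in control, 11.4% in TAA and 1.39% in recovery livers. Shares within a liver do not depend on the scaling between libraries.

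Ratios of gene pairs within a liver are free of that scaling as well, and 6 pairs were compared by an exact two-sided permutation test on log2 ratios of FPKM + 0.1. With 3 against 3 livers the smallest p is 0.1, so no ratio could pass the threshold. The Fn1/Vtn ratio was 0.413, 0.341 and 0.419 in control livers, 0.516, 0.624 and 0.644 in TAA livers, and 0.374, 0.366 and 0.317 in recovery livers. Vtn thus had the higher level in every liver, and its excess over Fn1 was smallest in the TAA livers, which did not overlap with the others. The log2 ratio differed by 0.61 between TAA and control and by -0.75 between recovery and TAA (exact permutation p = 0.1, adjusted p = 0.12 in both).

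The Thbs1/Thbs2 ratio was 0.818, 0.369 and 0.350 in control livers, 1.17, 1.55 and 1.0 in TAA livers, and 0.530, 0.469 and 0.804 in recovery livers. Thbs1 was thus at or above Thbs2 in the TAA livers and below it in all others. The Fstl1/Sparc ratio was 0.130, 0.101 and 0.122 in control livers, 0.204, 0.238 and 0.195 in TAA livers, and 0.110, 0.126 and 0.134 in recovery livers. The TAA livers again did not overlap with the others, and control and recovery livers overlapped. The Postn/Sparc ratio went the other way, at 0.273, 0.645 and 0.317 in control, 0.0818, 0.113 and 0.0916 in TAA, and 0.176, 0.124 and 0.181 in recovery livers. Here the recovery livers stayed below every control liver, with a log2 difference of -1.25 (exact permutation p = 0.1, adjusted p = 0.6). The log2 ratio of Tnc to Fn1 was 3.58 higher in TAA than in control livers and 3.22 lower in recovery than in TAA livers, each without overlap. Without the added 0.1 these differences were 4.29 and -3.83. For Thbs3/Thbs4 the log2 ratios overlapped in all comparisons (exact permutation p = 0.7 to 1).

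**Figure D3:**
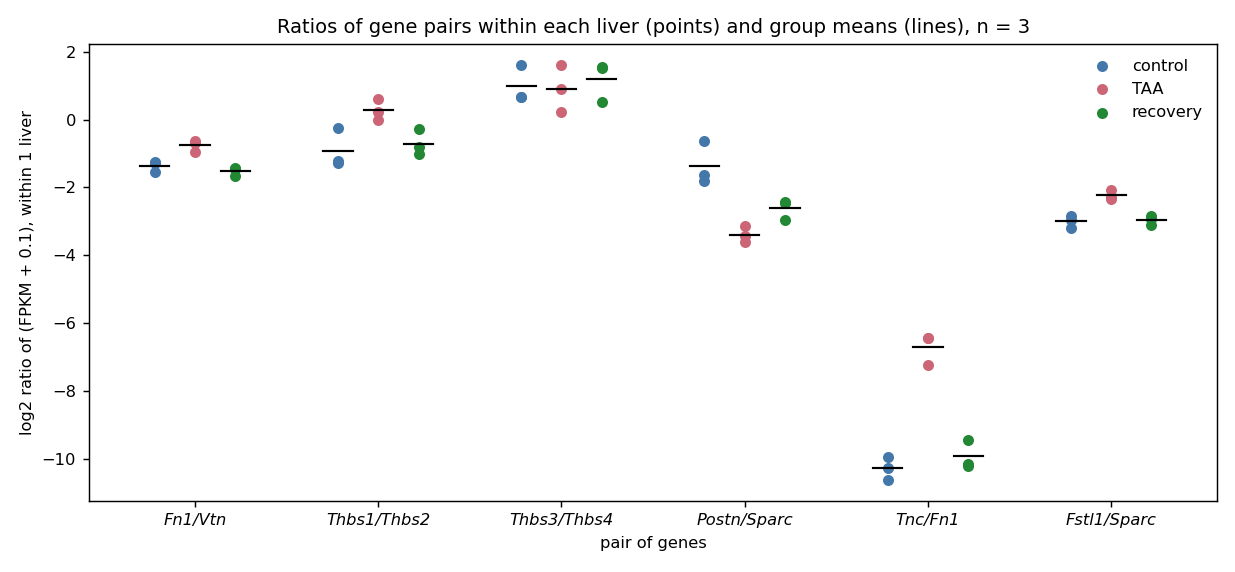
Log2 ratios of FPKM + 0.1 of 6 gene pairs (horizontal axis) within each liver (points) with group means (lines), for the control, TAA and recovery groups. TAA points lie above all others for Fn1/Vtn, Thbs1/Thbs2, Tnc/Fn1 and Fstl1/Sparc and below all others for Postn/Sparc.

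In the recovery group none of the 10 genes was called against the control group by limma. At an unadjusted p under 0.05 there were 4 of 10 (Sparc, Thbs1, Thbs2 and Fstl1), where 23.0% of all tested genes were under that limit. The recovery livers were above all control livers for 2 genes (Sparc and Thbs2), where 14.6% of all tested genes were. The log2 fold changes were 0.71 for Thbs1 (SE 0.29, adjusted p = 0.213), 0.57 for Fstl1 (SE 0.20, adjusted p = 0.169), 0.52 for Sparc (SE 0.17, adjusted p = 0.149) and 0.48 for Thbs2 (SE 0.19, adjusted p = 0.203). The values for Tnc, Thbs3, Fn1 and Vtn were 0.23, 0.26, -0.16 and -0.01. Without control mouse 1 the value of Thbs1 was 0.99 (adjusted p = 0.11). With 3 livers per group these p-values do not show that the levels were equal.

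As a description, the share of the TAA change in mean scaled FPKM that was left in recovery was computed for the 8 genes called in TAA against control. It was 1.41% for Vtn, 2.35% for Thbs4, 2.94% for Tnc, 3.96% for Fstl1, 6.10% for Sparc, 9.07% for Thbs1, 11.8% for Thbs3 and 16.9% for Thbs2. The median was 5.03% (6.10% without Thbs4), and 3.50%, 8.71% and 7.25% in the 3 recovery mice taken singly. Over all 3520 genes called in the same comparison the median was 10.7%, with quartiles of 1.94% and 27.0%. All of the 8 genes but Vtn were called higher. Over the 2389 genes called higher the median was 8.26%, with quartiles of 1.54% and 18.4%. Single mice varied widely for some genes, from -14.9% to 26.2% for Thbs3, from -18.3% to 11.6% for Vtn and from 8.5% to 32.0% for Thbs2. For Fstl1 the range was 1.15% to 5.65%. Both quantities use the same control and TAA livers.

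**Figure D4:**
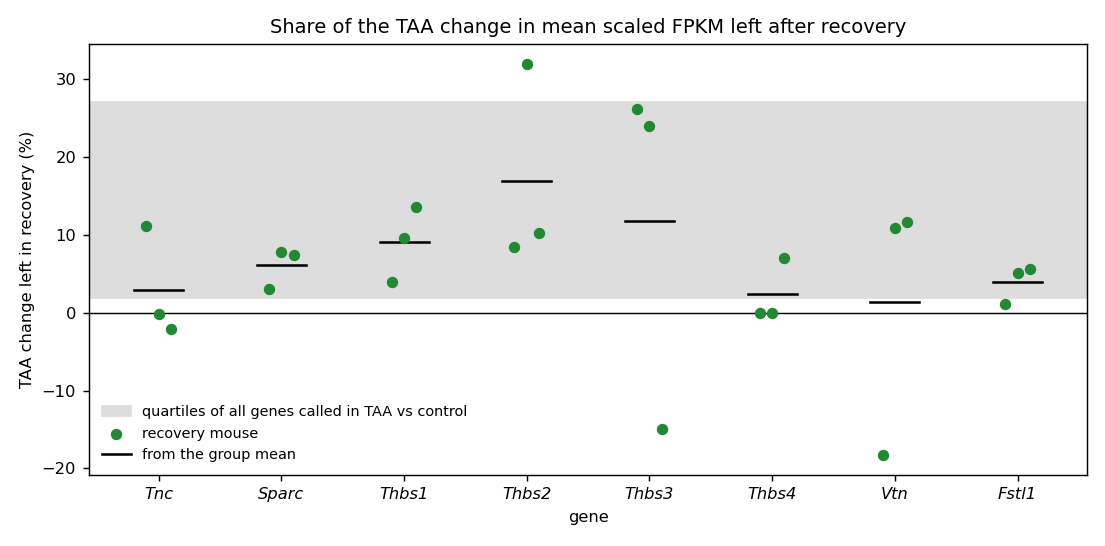
Share of the TAA change in scaled FPKM left after recovery (vertical axis, percent, 0 being the control mean) for the 8 genes called in TAA against control, for each recovery mouse (points) and from the group mean (lines), with the quartiles over all called genes (1.94% to 27.0%) shaded. Fstl1, Sparc and Thbs1 have narrow ranges above 0 in every recovery mouse, while Thbs2, Thbs3 and Vtn vary between mice. A small share of a large rise is not a level equal to control. The Vtn share moved to -17.5% with FPKM as deposited. Over genes called higher alone, the quartiles were 1.54% and 18.4% (not drawn).

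Related genes were taken from lists of other matricellular proteins, receptors and binding partners. Of 23 other matricellular genes 16 were tested, and 9 rose and 1 fell in the TAA group, with a list median log2 fold change of 1.42. Of all tested genes 17.0% rose and 8.02% fell in the TAA group. In recovery against TAA 8 of the 16 fell and 0 rose, where 14.3% and 7.12% of all tested genes did. These counts include Fstl4, at 0.00609 in control, 0.335 in TAA and 0.00664 in recovery livers on average. Fstl4 passed the filter on low values only through the TAA group, so that its direction was fixed by the filter. The largest rise was that of Spp1, which encodes osteopontin, at 16.4, 13.8 and 18.0 in control livers, 415, 284 and 274 in TAA livers, and 23.6, 24.7 and 31.7 in recovery livers. Its log2 fold change for TAA against control was 4.31 (SE 0.18, adjusted p = 4.16e-06). The Sparc relatives Smoc2 and Sparcl1 rose by 2.82 and 2.72 on the log2 scale, and Fstl3, which binds activins, rose by 2.46. Smoc1, a paralogue of Smoc2, was lower instead, at 36.5 ± 3.32 in control and 17.5 ± 1.31 in TAA livers (log2 fold change -1.06, adjusted p = 1.26e-04), but missed the 2-fold limit for FPKM as deposited (-0.42) and with quantile normalization (-0.71).

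Among 22 receptor genes, all tested, 6 rose and 2 fell in the TAA group, where 17.0% and 8.02% of all tested genes did, and 6 fell and 1 rose in recovery against TAA. Of all tested genes 14.3% fell and 7.12% rose in recovery against TAA. For FPKM as deposited 12 receptor genes rose and 0 fell in the TAA group, and 12 fell and 0 rose in recovery. Calls over all 14094 genes shifted as well, to 4382 higher and 421 lower in the TAA group, and 3728 lower and 409 higher in recovery. These receptor counts include the integrin subunit Itgb6, at 0.0116 in control, 0.916 in TAA and 0.190 in recovery livers on average. Itgb6 passed the filter on low values only through the TAA group. Its direction was thus fixed by the filter, and no fold change is given. Of the other receptor genes, the integrin subunits Itga8 (3.0) and Itgb8 (1.99) and the urokinase receptor Plaur (2.36) rose most. The product of Plaur binds vitronectin. The heparan sulphate proteoglycans Sdc4 and Sdc2, co-receptors for fibronectin, fell by 1.31 and 1.13 on the log2 scale in the TAA group, with changes of -0.67 and -0.49 that missed the 2-fold limit for FPKM as deposited. Sdc4 was at 217, 221 and 228 in control livers, 91.0, 92.6 and 85.1 in TAA livers, and 191, 162 and 151 in recovery livers. Receptors that were not called include Cd47 (-0.13), Cd36 (0.97) and the integrin subunits Itgav (-0.02) and Itgb3 (-0.55).

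Of 15 binding partners, all tested, 12 rose and 0 fell in the TAA group, where 17.0% and 8.02% of all tested genes did. In recovery against TAA 12 fell and 0 rose, where 14.3% and 7.12% of all tested genes did. The list median log2 fold changes were 2.23 and -1.51. The fibrillar collagen genes Col1a1, Col3a1 and Col1a2 rose by 5.91, 4.95 and 4.54, and Plat, which encodes tissue plasminogen activator, by 4.99. Plat was the only gene of the 3 lists called in recovery against control, with a log2 fold change of 1.31 (SE 0.23, adjusted p = 0.0439). It was at 0.182, 0.265 and 0.154 in control livers, 7.28, 11.5 and 9.68 in TAA livers, and 0.553, 0.833 and 0.560 in recovery livers. This call was lost when any 1 liver was left out.

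**Figure D5:**
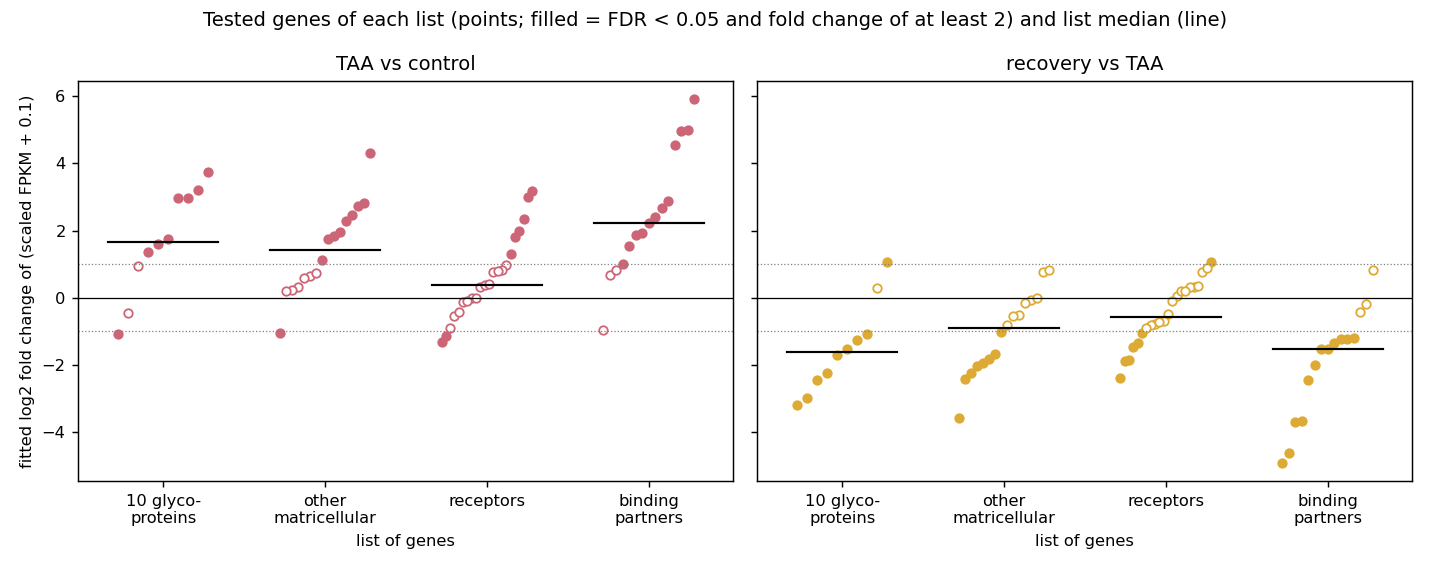
Fitted log2 fold changes of scaled FPKM + 0.1 (vertical axis) of the tested genes (points, filled where called) in the 10 glycoprotein genes and in the lists of other matricellular proteins, receptors and binding partners, with list medians as lines, for TAA against control (left) and recovery against TAA (right). The medians on the left are 1.67, 1.42, 0.39 and 2.23, and those on the right are -1.60, -0.91, -0.57 and -1.51. The points of Fn1 and Vtn among the 10 genes change sign under quantile normalization, that of Fn1 also for FPKM as deposited. Thbs4, Fstl4 and Itgb6 passed the filter on low values only through the TAA group.

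Markers of some cell types differed between the groups and others did not. Of all tested genes 17.0% rose and 8.02% fell in the TAA group, and 14.3% fell and 7.12% rose in recovery. All 8 activated stellate cell markers rose in the TAA group and all 8 fell in recovery. Their summed levels were 9.57 to 12 in control, 189 to 279 in TAA and 11 to 22.1 in recovery livers. Timp1 of this list and Scx of the tendon list passed the filter on low values only through the TAA group. Their directions were thus fixed by the filter. Col1a1, Col1a2 and Col3a1 are also among the binding partners, and the portal fibroblast list shares a gene with them, so these lists are not independent. Of 8 hepatocyte markers 4 fell in the TAA group and 5 rose in recovery against TAA, with sums of 35600 to 39600, 21500 to 28400 and 44600 to 47600. These counts were 0 and 1 for FPKM as deposited, where 421 of all 14094 genes fell in the TAA group and 409 rose in recovery. With quantile normalization both were 0, and 1 marker rose in the TAA group. Of all genes 1355 then fell and 1534 rose in the TAA group, and 1198 rose in recovery. Albumin was the most abundant hepatocyte marker, which matches the labelled tissue. It made up most of the sums but was not called in TAA against control (log2 fold change -0.48, adjusted p = 0.188). The sums of control and TAA livers overlap in FPKM as deposited. All 5 cholangiocyte markers rose (sums of 1.95 to 2.97, 25.8 to 31.6 and 4.35 to 6.87), as did 3 of 6 quiescent stellate markers, 5 of 8 portal fibroblast and mesothelial markers and 3 of 8 macrophage markers. For FPKM as deposited the last 3 counts were 6, 8 and 5, and with quantile normalization 4, 2 and 2. Of all 14094 genes 4382 rose as deposited and 1534 with quantile normalization. Gpnmb, high in control mouse 1, was among the macrophage markers not called (log2 fold change 2.84, SE 1.62, adjusted p = 0.174). No marker was called in TAA against control among 7 for endothelium and 10 for skeletal muscle, while 1 of 4 tested for platelets (Pf4) and 2 of 4 tested for tendon (Scx and Fmod) rose. Of the tendon list 1 gene fell, Chad, at 5.73 ± 0.622 in control and 1.17 ± 0.161 in TAA livers (log2 fold change -2.20, adjusted p = 2.61e-05). The part of these cells in the levels of the 10 glycoprotein genes was not tested.

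The profiles most like each gene were found by the root mean square difference of centred log2 values over the 9 livers, given as a description. Fstl1 was most like Lox (0.235), which encodes the collagen cross-linking enzyme lysyl oxidase, Col6a3 (0.238), a collagen VI chain, and Fblim1 (0.243). Sparc was most like Ccdc80 (0.137), Fbn1 (0.151), which encodes fibrillin 1, and Ajap1 (0.165). For Tnc the nearest were Aldh1a2 (0.311), Ncam1 (0.339) and Robo2 (0.376), for Thbs1 Plp2 (0.141), Cx3cl1 (0.144) and Sh3pxd2b (0.186), and for Thbs2 Nptxr (0.111), Dact3 (0.124) and Crip1 (0.156). Vtn lay nearest to 2310039H08Rik (0.0559), Cfb (0.0607), which encodes complement factor B, and Ppp2r5a (0.0681). Fn1 lay nearest to Zdhhc18 (0.077), Lrp1 (0.0791) and Zmym3 (0.0857). No gene of the extracellular matrix was among the nearest 3 of Postn, which were Spice1 (0.244), Slc2a3 (0.307) and Palb2 (0.325). Thbs3 lay nearest to Chst9 (0.211), Lrrc75a (0.231) and Hey1 (0.245). Thbs4 lay nearest to Cmya5 (0.130), a gene known from striated muscle, Olfml2b (0.149) and Bex2 (0.156). Most Thbs4 values were 0 before the added 0.1, so its distances rest on few values. Within the set, the closest pairs were Thbs2 with Thbs3 (0.349), Fn1 with Vtn (0.350) and Sparc with Fstl1 (0.378).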

How the data were processed

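Liver mRNA of 9 mice was analysed, with groups taken from the labels. The authors mapped paired-end reads to mm10 with HISAT2 2.2.1, counted them with featureCounts 1.5.0-p3 (versions from the submitters' processing notes) and deposited FPKM per gene and mouse. Small RNA libraries were not analysed here. Depth was estimated from low FPKM values, of which 52.4% to 62.3% per library were whole fragments (tolerance 0.03, 6.0% by chance), too few for a count test. No libraries were duplicates. Errors are SD over 3 mice.

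FPKM were scaled by median-of-ratios factors over the 14005 genes above 0 in all libraries. Genes with mean FPKM of at least 0.1 were tested with limma 3.58.1 in R 4.3.3 (lmFit, eBayes with trend, Benjamini-Hochberg over all tested genes), with the 6 libraries of each comparison. Tables and permutation tests used Python 3.11.15 and scipy 1.17.1. Loci follow GENCODE M21 and equal those of the file for all 10 genes. In 1 simulation of TAA against control with 13829 genes, 100% of 200 changed genes were recovered with 0 false calls. It gave every gene the same spread, left genes with low FPKM unchanged and used only changes larger than the 2-fold limit. It therefore does not show how well smaller changes, genes with low FPKM or genes of unequal spread are called in these data.

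The 10 genes and all lists were chosen with earlier results of these data known. Named from the lists of other matricellular proteins, receptors and binding partners were at most 4 called genes per direction with the largest fold change in TAA against control, and genes called in recovery against control. Named as well were marker genes highest in TAA mouse 3 or most abundant, and the nearest 3 profiles. Ccn genes and other members of lists are only counted. Gpnmb, Trem2, Marco, Timp1, Fstl4, Cd47, Cd36, Itgav, Itgb3, Pf4, Scx, Mkx and Chad were named after their values were seen. The labels do not say more on the origin of replicates than 1 mouse per library. Alternatives to the pseudocount, filter, scaling, fit and set of mice were tried.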

Additional observations from a re-analysis of the deposited data

How the results depend on the processing

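Few fragments limit the values of Thbs3, Thbs4 and, in control livers, Tnc. The alternatives for the lists and the left-out mice for the ratios were chosen after seeing the data. Among values of the 10 genes under alternatives, 504 kept their direction and side of the threshold, 35 lost a call, 5 gained one and 18 reversed. Both calls of Tnc, Sparc, Thbs1 and Fstl1 and the fall of Postn in recovery against TAA were kept in all 19.

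Under treat, which tests for more than a 2-fold change, 4 of the 10 genes were called in TAA against control and 5 in recovery against TAA. Leaving out 1 mouse gave 6 to 8, 7 to 8 and 0 to 0 calls for TAA against control, recovery against TAA and recovery against control. The median share of the TAA change left was 4.04% to 6.53%, and 11 to 13 ratio comparisons had no overlap (11 with all mice). The 3 related lists held 27 calls in recovery against TAA, but 14 with a pseudocount of 1 and 11 with treat. Their 1 call in recovery against control became 0 with a pseudocount of 1, without a filter, with quantile normalization, without a trend, with treat, with the replicate block and without any 1 mouse (0 to 0), and 2 in the fit of all 9 libraries.

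For TAA against control, Fn1 reversed to 0.18 as deposited, 0.36 with the same FPKM sum per library and 0.76 with quantile normalization, and Vtn to 0.46 with the latter. For recovery against TAA, Fn1 reversed to -0.26, -0.46 and -0.77, and Vtn to -0.28 with quantile normalization. For recovery against control, Vtn (main value -0.01) was 0.07, 0.05 and 0.18 under these scalings, 0.01 with upper quartile scaling and -0.08 to 0.03 without 1 mouse (0.03, 0.01, 0.02 and 0.03 where it reversed). The fitted value of Thbs4, which depends on the pseudocount and is no fold change, was -0.02 with quantile normalization and Tnc -0.15 without recovery mouse 1 (-0.15 to 0.49 without any 1 mouse). Quantile normalization and a pseudocount of 1 also ended the calls of Thbs3 and Thbs4. The cause was not tested. Among all tested genes, 3520 were called in TAA against control (67.9% of them higher), but 1780 with a pseudocount of 1 (890 higher), 2204 at a mean FPKM of at least 1 (53.4%), 5806 with the same FPKM sum (94.3%) and 1441 with treat. As deposited 91.2% of calls were higher, and with quantile normalization 53.1%. For recovery against TAA 3017 were called (33.2% higher), but 1460 with a pseudocount of 1 (51.3%), 1895 at a mean FPKM of at least 1 (48.5%), 5159 with the same FPKM sum (5.91%) and 1084 with treat. As deposited 9.89% were higher, and with quantile normalization 46.5%. For recovery against control 140 were called, but 80 with a pseudocount of 1, 48 without a filter, 235 in the fit of all 9, 85 without a trend, 0 with treat and 27 to 100 without 1 mouse.

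Deviations from the group mean had r of -0.07 to 0.125 between mice with the same replicate number, and -0.113 to 0.133 between mice with different numbers. Whether mice with the same number shared a batch was not tested. With the replicate block, 8 of the 10 genes were called in TAA against control and 8 in recovery against TAA, since Thbs3 missed the threshold (adjusted p = 0.0548). Over all tested genes the block gave 3517, 3026 and 17 calls in the 3 comparisons.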
